A study of Mus musculus with 28 samples.

Results

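The 5-hydroxymethylcytosine (5hmC) peaks of bone marrow cells lacking Tet2 were compared with those of wild-type (WT) cells, using the 4 peak lists that the labels assign to these genotypes, 2 for Tet2 knockout (Tet2KO, Tet2-/-) and 2 for WT. They belong to a series of 28 mouse samples, of which 11 are peak lists of modified DNA and 17 are RNA-seq libraries not analysed here. All 4 lists came from C57BL/6 mice aged 6 to 10 weeks, from marrow cells labelled LK. A peak list holds no expression, so neither the LK label nor the loss of Tet2 could be checked here against markers or the targeted gene. The labels do not say how Tet2 was inactivated or whether the 2 lists of a genotype are from different animals, and the p-values here reflect no more than the spread among these libraries, which could be technical. The 2 lists from mice lacking both Tet1 and Tet2 (DKO) entered the genome-wide fit for its estimate of spread and are given beside some values. These mice were also aged 6 to 10 weeks. So were the WT mice behind 2 lists of 5-methylcytosine peaks, used below as reference places. Only chromosomes 1 to 19 are described.

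TET enzymes oxidise 5-methylcytosine (5mC) to 5hmC, the first step of a route by which methylation is removed from DNA. 5hmC is most often found in the bodies of active genes and at enhancers, and Tet2 is a main TET enzyme of blood stem and progenitor cells, where its loss is a common event in myeloid disease. In hMe-Seal, a sugar carrying a chemical handle is attached to 5hmC, so that labelled fragments can be captured and sequenced. A peak is then a stretch in which captured fragments passed the threshold of the peak caller. Its presence and width do not give the share of cytosines that carry the mark.

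Peaks were more numerous and narrower in Tet2KO than in WT, and together they covered less of the genome. WT replicates 1 and 2 had 128026 and 134816 peaks. Tet2KO replicates 1 and 2 had 136320 and 139869. The Tet2KO lists were thus the longer ones, by 5.08% on average (138094 ± 2510 against 131421 ± 4801, SD, n = 2 each). Covered length was 111.4 and 108.8 Mb in WT and 101.1 and 98.2 Mb in Tet2KO. Means were 110.1 ± 1.79 Mb (SD, n = 2) and 99.6 ± 2.08 Mb (SD, n = 2), so that coverage in Tet2KO was 9.50% lower. The median peak was 729 and 682 bp wide in the WT lists and 634 and 599 bp wide in the Tet2KO lists, a difference in means of -12.6% (705.5 ± 33.2 bp in WT and 616.5 ± 24.7 bp in Tet2KO, SD, n = 2 each). In all 3 quantities the groups did not overlap, and the difference exceeded the SD within either group. For 2 against 2 libraries the smallest p of an exact two-sided permutation test is 0.33, and each of these differences had it, also after Benjamini-Hochberg adjustment over the 5 quantities compared per library. In DKO the longer list also had the narrower peaks, with 129556 peaks of median 706 bp in replicate 1 and 143346 peaks of median 624 bp in replicate 2. Neither read depth nor fragment length was known, and their part in peak number and width was not tested.

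The narrowing ran through the whole range of widths. At the narrow end, the 5th percentile of width was 430 and 399 bp in WT and 373 and 367 bp in Tet2KO. At the wide end, the 95th percentile was 1741 and 1615 bp against 1475 and 1386 bp. Both ends of the distribution were therefore shifted to smaller values in the Tet2KO libraries. Peaks under 400 bp numbered 5401 ± 1937 in WT (SD, n = 2) and 11101 ± 1314 in Tet2KO (SD, n = 2), 106% more. Peaks of at least 2000 bp numbered 3572 ± 540 in WT (SD, n = 2) and 2092 ± 375 in Tet2KO (SD, n = 2), 41.4% fewer. The classes between these ran in order, with 19.7% more peaks of 400 to 800 bp, 23.5% fewer of 800 to 1200 bp and 33.5% fewer of 1200 to 2000 bp. Each class includes its lower bound and not its upper one, and in none of the 5 did the groups overlap. Libraries of the same genotype could differ as widely. DKO replicates 1 and 2 had 4435 and 11057 peaks under 400 bp, and 3899 and 2343 of at least 2000 bp. The covered length held by peaks of at least 2000 bp was 9.50 Mb in WT and 5.42 Mb in Tet2KO.

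**Figure D1:**
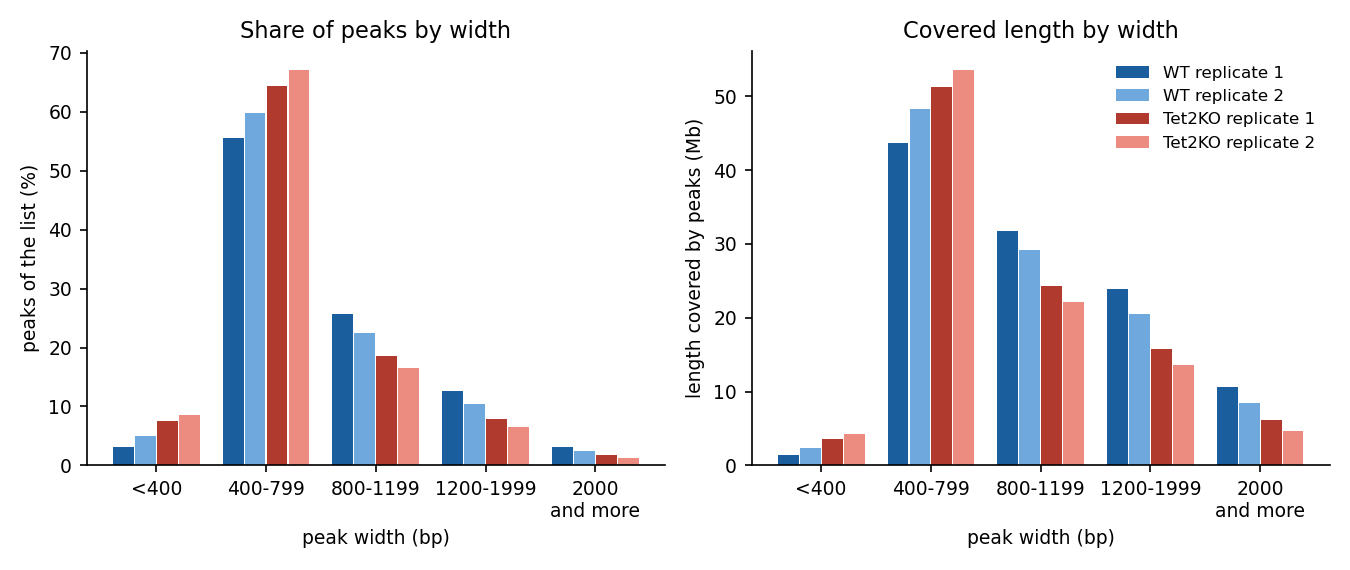
Bars give, for each of the 4 libraries and 5 classes of peak width in bp, the share of that list's peaks in percent (left) and the length they cover in Mb (right). Below 800 bp the Tet2KO bars are the taller ones and from 800 bp on they are the shorter ones, for example 2092 against 3572 peaks on average at 2000 bp and more.

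Narrower peaks in Tet2KO were found at every level of the score that the authors deposited for each peak, which was used here only to rank peaks within a list. Among the best 10% of each list the median width was 1558 and 1450 bp in WT and 1328 and 1244 bp in Tet2KO. Among the 10% with the lowest scores it was 558 and 518 bp in WT and 482 and 458 bp in Tet2KO. The top peaks of the knockout lists were thus still more than 1200 bp wide at the median. The scores themselves ran slightly higher in the Tet2KO lists. A score of at least 100 was held by 45.9% and 45.3% of WT peaks and 47.0% and 47.8% of Tet2KO peaks. For a score of at least 200 the shares were 16.4% and 15.9% against 17.6% and 18.0%. The median score was 93.65 and 92.8 in WT and 94.88 and 96.16 in Tet2KO.

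The strongest WT peaks were nearly all present without Tet2. Of the top 10% of WT replicate 1, 99.8% overlapped a peak of Tet2KO replicate 1 and 99.7% one of replicate 2, by at least 1 bp. For WT replicate 2 these shares were both 99.6%. The other WT library held 100% and 99.99%. When 50% of the WT peak had to be covered, the mean share found in Tet2KO was 96.0%, against 99.2% and 99.4% in the other WT library. By the same rule, the top 10% of the Tet2KO lists were found at 98.3% to 98.9% in WT. The other Tet2KO library held 96.4% and 97.3% of them. Shares were lower below the top ranks. In the 4th decile of each WT list by score, the other WT library held 94.0% and 92.8% of peaks, while the Tet2KO libraries held between 84.3% and 87.1%. In the same decile of the Tet2KO lists, the WT libraries held 85.2% to 86.3% and the other Tet2KO library 83.7% and 82.4%. The shortfall against the WT pair was thus at least as large between the Tet2KO replicates as between genotypes. In the lowest decile all lists converged, at 46.1% and 42.0% between the WT libraries and 42.0% to 44.6% in Tet2KO. Weak peaks were therefore found again less often than strong ones even within a genotype.

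**Figure D2:**
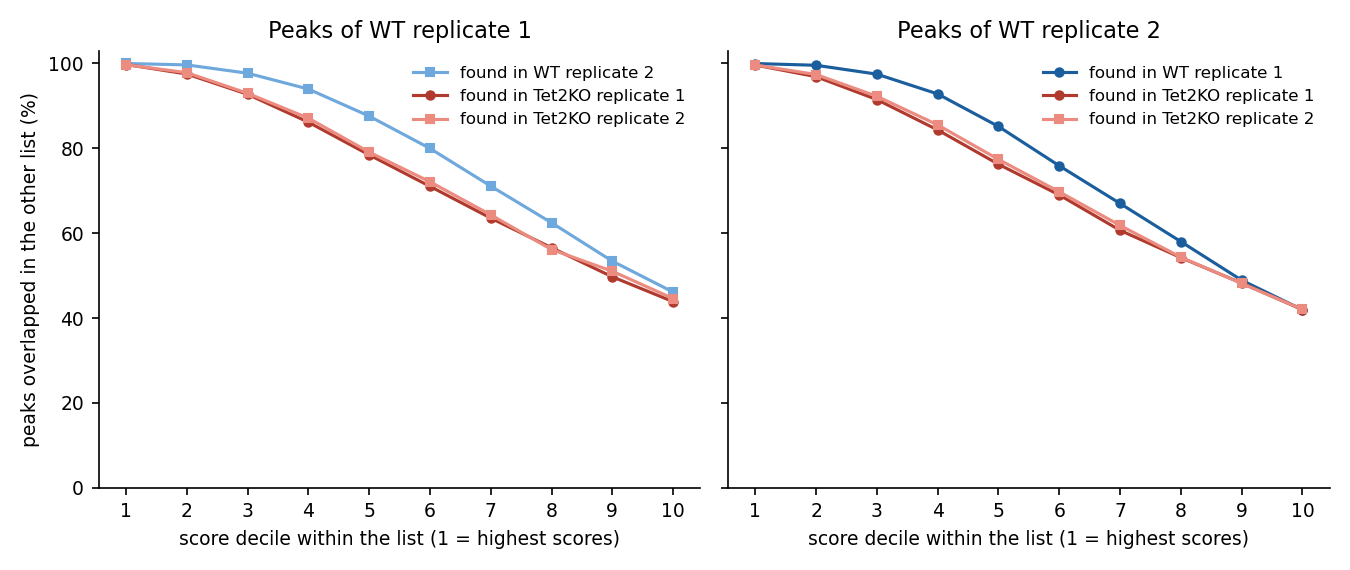
Lines give the percentage of peaks of WT replicate 1 (left) and WT replicate 2 (right) that overlap a peak in each of the other 3 libraries, by deciles of the list from the highest scores (1) to the lowest (10). All lines start near 100% and the Tet2KO lines lie below the WT line in the middle deciles, for example 84.3% to 87.1% against 92.8% and 94.0% in the 4th.

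The 2 Tet2KO libraries were less alike than the 2 WT libraries, and this touches every comparison of presence. Of the base pairs covered in either library, 58.6% were covered in both WT libraries, 50.1% in both Tet2KO libraries and 51.4% to 52.1% in pairs of 1 WT and 1 Tet2KO library. Tet2KO replicate 1 had 71.2% of its peaks in Tet2KO replicate 2 but 72.0% and 72.7% in the WT libraries. A Tet2KO library was thus no closer to its own replicate than to WT. Regions found in 1 library and in none of the other 3 made up 8.68% and 10.4% of the regions of the WT libraries, and 14.2% and 14.5% of those of the Tet2KO libraries. Tet2KO replicate 2 alone had a dense stretch at chr2:77700001-77900000 (mm9, as all positions here), where it held 55 peaks, against 1 in each of the other 3 libraries and 3 and 4 in DKO. The first 100 kb of it were 49.7% covered in Tet2KO replicate 2 and 0.328% to 0.672% covered in the other 3.

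Peaks of the 4 libraries that overlapped were merged into 193301 regions. A region with a peak in both WT libraries and in neither Tet2KO library is called lost, and 6916 regions (3.58%) were. A region with a peak in both Tet2KO libraries and in neither WT library is called gained, and 7206 regions (3.73%) were. Regions shared by all 4 libraries numbered 68420, which is 35.4% of regions and 51.9% of the merged length. Lost and gained regions were therefore few and close to equal in number, and presence of a peak in 2 against 2 libraries has no test per region. Which class was larger depended on the setting. With the same number of top peaks taken from each list there were 7708 lost and 5891 gained regions, and with scores of at least 200 there were 1191 lost and 1888 gained. Leaving out 1 library relaxes the definition and gave 16221 to 20740 lost and 13555 to 26044 gained regions.

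Lost and gained regions were small and weak. Their median width was 717 bp for lost and 597 bp for gained regions, against 1066 bp for shared ones. Only 129 of 6916 lost and 20 of 7206 gained regions were at least 1500 bp wide, while 17898 of 68420 shared ones were. A shared region merges the peaks of more libraries, which widens it by construction. Single WT peaks had median widths of 647 and 614 bp in lost and 832 and 783 bp in shared regions. Single Tet2KO peaks had 526 and 502 bp in gained and 730 and 686 bp in shared regions. Lost regions lay at a median percentile of 28.0 and 30.0 of the scores of the WT lists, where 100 is the best, and gained regions at 28.2 and 28.4 of the Tet2KO lists. Shared regions had medians between 68.0 and 68.7 in the 4 lists. No lost region and no gained region was in the top 10% of both libraries that held it, and 16 lost and 9 gained regions were in the top 25% of both. Being small and weak was not particular to these classes. The 110759 regions with any other pattern had a median width of 595 bp and median percentiles of 27.2 and 27.8 in the WT lists and 28.9 and 29.3 in the Tet2KO lists.

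The best ranked lost region was chr7:30976827-30978396, with a peak of 1524 bp at percentile 85.8 in WT replicate 1 and one of 1505 bp at percentile 92.7 in WT replicate 2. Neither Tet2KO library had a peak there, both DKO libraries had one, and both WT 5mC libraries had a 5mC peak. Next came chr1:173115328-173118268, where a peak of 2519 bp at percentile 78.0 and one of 1752 bp at percentile 93.4 were absent in Tet2KO. The widest lost region was chr1:158586167-158589219, with 2749 and 2103 covered bp in the WT libraries. It is 3053 bp long and had peaks in both DKO libraries as well. Of the 10 best ranked lost regions 5 lay on 5mC peaks of both WT 5mC libraries, as did 5 of the 10 widest. Both DKO libraries, which also lack Tet2, had a peak at all 10 best ranked lost regions and at 6 of the 10 widest. At 0 of these places did both DKO libraries lack a peak. The DKO states were taken for these places only, so no share over all lost regions stands beside these counts. The best ranked places also have the highest scores, and strong peaks were found again more often in any library.

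Among gained regions the best ranked was chr15:72663519-72665234, with a peak of 1512 bp at percentile 91.1 in Tet2KO replicate 1 and one of 1448 bp at percentile 81.9 in replicate 2. Close behind was the much smaller chr6:143403161-143403693, with peaks of 478 and 501 bp at percentiles 88.5 and 84.5. Neither had a WT 5hmC peak or a WT 5mC peak, and both had peaks in both DKO libraries. The widest gained region, chr15:82856983-82859556, was covered over 1137 and 2520 bp. Its percentile was 13.9 in Tet2KO replicate 1 and 80.9 in replicate 2, so the 2 libraries did not rank it alike. Of the 10 best ranked gained regions 0 lay on 5mC peaks of both WT 5mC libraries, and of the 10 widest 3 did. Both DKO libraries had a peak at 8 of the 10 best ranked and at 8 of the 10 widest, again without a share over all gained regions.

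Lost regions lay nearer to shared peaks than gained regions did. The median distance to the nearest shared region was 3238 bp for lost and 4169 bp for gained regions, and 26.1% and 22.1% lay within 1 kb. Shared regions had a median distance of 1640 bp to each other. Lost regions were spread over 4668 bins of 100 kb and gained regions over 5179. Lost regions numbered 5 or more in 39 bins, and gained regions in 18. The densest lost bins, with 7 lost regions each, were chr6:88100001-88200000, which also held 1 gained and 13 shared regions, and chr11:112900001-113000000, which held 0 gained and 2 shared regions. The densest gained bin was chr6:134200001-134300000, with 8 gained, 1 lost and 10 shared regions.

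At the 68420 regions held by all 4 libraries, width can be compared at the same places. The median covered length per region was 884 and 845 bp in WT and 787 and 749 bp in Tet2KO, a difference in means of -11.2% (exact permutation p = 0.33, the smallest possible). The groups did not overlap. Both Tet2KO libraries were narrower than both WT libraries at 21954 regions (32.1%) and wider at 5728 regions (8.37%). The median log2 difference in covered bp over all shared regions was -0.12, and 69.7% of regions had the lower mean in Tet2KO. When every library was first centred at its own median, 42.5% of regions had the lower mean in Tet2KO and the median log2 difference was 0.05, so after centring the lean was the other way. No region (0%) was called by limma at an adjusted p under 0.05 in either direction, with 4969 regions (7.26%) narrower and 837 (1.22%) wider at an unadjusted p under 0.05. Regions with exactly 1 peak in each library had a median log2 difference of -0.12 as well.

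The shared regions with the smallest p values show what a narrower region looked like. At chr9:118719214-118721682, 2242 and 2340 bp were covered in WT by 3 and 2 peaks, and 356 and 445 bp in Tet2KO by 1 peak each. Its log2 difference was -2.52 (95% interval -3.03 to -2.02, limma adjusted p = 0.352). At chr2:30817632-30820509, 2660 and 2538 bp in WT stood against 686 and 649 bp in Tet2KO. A broad domain at chr7:30123232-30128698 was covered over 5331 and 5036 bp in WT and over 2780 and 2855 bp in Tet2KO. These places were chosen by p among all shared regions, which favours close replicates and a large gap. Over the 10 narrower regions with the smallest p, Tet2KO had 17.4% to 54.4% of the WT covered length, all at an adjusted p of 0.352. Wider regions existed too. At chr14:56379924-56382924 the covered length was 949 and 965 bp in WT and 2464 and 2352 bp in Tet2KO, a log2 difference of 1.33 (95% interval 0.95 to 1.71, limma adjusted p = 0.352). At chr11:76399607-76401725 it was 570 and 572 bp against 1577 and 1844 bp.

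The relative shortfall at shared regions was similar across sizes. The median difference was -6.78% for the 11857 regions with a mean covered length under 600 bp, -8.17% for the 26811 regions of 600 to 900 bp and -7.00% for the 2747 widest regions. The share of regions narrower in both Tet2KO libraries was 28.5% in the smallest class and 42.4% in the largest. The share wider in both was 8.86% and 5.64%. The scores of these regions were also ordered less alike between genotypes than within WT. Spearman's rho of the within-list percentiles over the 68420 regions was 0.775 for the WT pair, 0.654 to 0.664 for the 4 pairs across genotypes and 0.623 for the Tet2KO pair. These are descriptions over regions of the same libraries, and the lowest value belonged to the Tet2KO replicates.

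Coverage of the genome was then compared in 100 kb bins. All 19 chromosomes had less covered length in both Tet2KO libraries than in both WT libraries, from -6.32% on chromosome 6 to -12.6% on chromosome 17. Of 13201 bins tested on these chromosomes, 3557 (26.9%) had lower coverage in both Tet2KO libraries than in both WT libraries and 1776 (13.5%) had higher coverage in both. By the mean, 7674 bins were lower and 5477 higher. No bin (0%) was called in either direction by limma at an adjusted p under 0.05, with 1214 bins (9.2%) lower and 490 (3.71%) higher at an unadjusted p under 0.05. One bin was called higher when Tet2KO replicate 1 was left out, and it was the stretch on chromosome 2 that only Tet2KO replicate 2 holds.

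The direction depended on how much 5hmC a bin carried. In the 1431 bins with a mean coverage of at least 20% over all 6 5hmC libraries, 31.2% and 30.4% were covered in WT and 27.2% and 26.3% in Tet2KO, 13.1% less. Both Tet2KO libraries were lower in 65.0% of these bins and higher in 1.61%. Bins with 5 to 10% coverage had 7.25% less in Tet2KO. At 2.5 to 5% the genotypes overlapped, with 3.60% covered in each on average. The 2734 bins under 1% went the other way, at 0.394% and 0.410% in WT and 0.556% and 0.530% in Tet2KO, 35.2% more. Dense stretches thus carried less 5hmC peak coverage in Tet2KO, and the sparse stretches tested carried more. A peak in any 2 of the 6 libraries admitted a bin, so sparse bins could enter through the knockout libraries alone. Their higher values are therefore no support for a gain. In DKO the difference from WT in the sparsest bins was 7.94% and 43.1%, and in the densest bins -0.67% and -7.79%, for replicates 1 and 2. The DKO library with more peaks was the one with the larger differences, and the part of peak number in this pattern was not tested. With the same number of top peaks taken from each list, 64.1% of bins were lower in Tet2KO by the mean, against 58.4% with all peaks. The share was 55.2% after centring each library at its median and 52.3% with scores of at least 100, close to even.

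**Figure D3:**
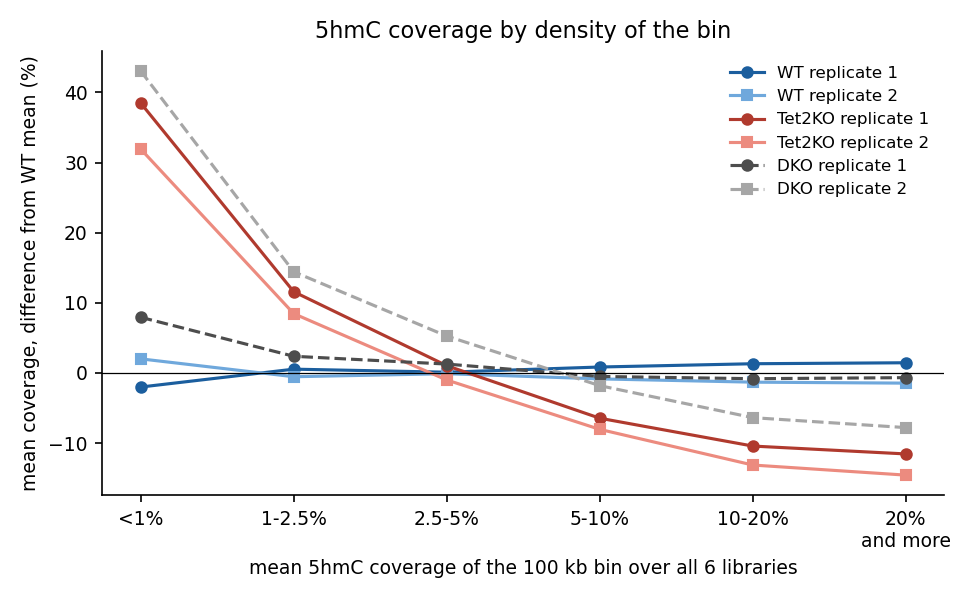
Points give the mean coverage of each library in 6 classes of 100 kb bins as a percentage difference from the WT mean of that class, with bins ordered by their mean 5hmC coverage over 6 libraries. Both Tet2KO lines cross from above WT in the sparsest bins (35.2% on average) to below WT in the densest (-13.1%), and the dashed DKO lines are given for comparison.

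Some lower bins lay next to each other. The 3557 bins with lower coverage in both Tet2KO libraries formed 2135 runs of 1 or more adjacent bins, of which 339 had at least 3 bins and 91 at least 5. The 1776 bins with higher coverage, which were fewer from the start, formed 1516 runs, of which 28 had at least 3 bins and 1 had 5. Most runs were therefore short. The longest run, of 14 bins, was chr4:133800001-135200000, with mean coverage of 32.9% and 31.4% in WT and 26.7% and 26.1% in Tet2KO. A run of 12 bins at chr4:140100001-141300000 had 30.1% and 29.3% against 24.3% and 22.3%. At chr10:93000001-94100000, 11 adjacent bins had 13.6% and 13.8% in WT against 9.50% and 9.05% in Tet2KO. These are megabase stretches of dense 5hmC with both Tet2KO libraries below both WT libraries in each 100 kb bin. The 1 run of 5 higher bins was chr5:32400001-32900000, a sparser stretch with 3.66% and 3.33% in WT and 5.07% and 4.41% in Tet2KO.

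The bin with the smallest p was chr11:112900001-113000000. In WT, peaks covered 13.8% and 13.3% of it. The Tet2KO libraries covered 3.41% and 3.52%, and the DKO libraries 13.7% and 12.3%. Tet2KO thus had 25.6% of the WT coverage, while both DKO libraries were close to the WT values. The difference on the arcsine scale was -0.189 (95% interval -0.232 to -0.147, limma adjusted p = 0.197). Over 14 settings the adjusted p ranged from 0.00196 to 0.657, and it was under 0.05 in 1, where only bins with a mean coverage of at least 5% were tested. Over this bin and the next, 200 kb in all, the WT libraries had 26 and 29 peaks, the Tet2KO libraries 11 and 13 and the DKO libraries 41 and 37. Of the 32 merged regions there, 12 were lost, 0 gained and 7 shared. Over all merged regions 3.58% were lost, 3.73% gained and 35.4% shared. The place was chosen by p for its lower coverage in Tet2KO, so its many lost regions restate that choice and are no separate result. The bin stands at the edge of a dense domain. To its left, coverage was under 3% in all 6 libraries over 1500 kb. At 400 kb to its right WT coverage was 36.8% and 38.5%, and there the Tet2KO libraries were lower as well, at 29.8% and 28.9%.

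**Figure D4:**
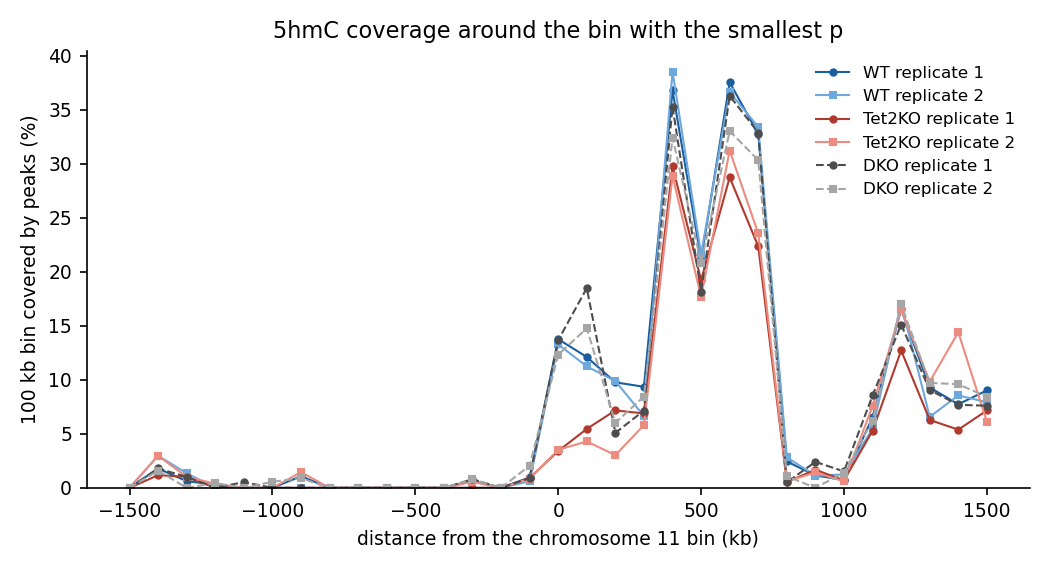
Lines give the percentage of each 100 kb bin covered by 5hmC peaks in the 6 libraries, against distance in kb from the chromosome 11 bin, over 1500 kb on each side. At 0 kb the Tet2KO libraries stand at 3.41% and 3.52%, below the WT and DKO libraries at 12.3% to 13.8%, and they are also lower in the dense bins at 400, 600 and 700 kb.

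The 9 lower bins that followed by p were on chromosomes 4, 6, 10, 15, 16 and 17. The first of them, chr4:116900001-117000000, had a WT coverage of 22.8% and 22.1% against 12.9% and 13.3% for Tet2KO (limma adjusted p = 0.299), with 14.7% and 14.3% for DKO. At chr15:96400001-96500000, WT coverage was 34.1% and 32.5%, Tet2KO coverage 21.3% and 22.4% and DKO coverage 20.8% and 22.3%. These 2 were the bins, of the 9, in which the DKO libraries stood closest to Tet2KO. At chr10:93100001-93200000, WT coverage was 26.7% and 28.6%, Tet2KO coverage 16.1% and 17.3% and DKO coverage 20.2% and 20.3%. At chr4:43400001-43500000, WT had 32.3% and 33.15%, Tet2KO 21.6% and 18.4% and DKO 29.6% and 28.2%. Of the 9, the bin at chr15:96400001-96500000 had a DKO mean just below the Tet2KO mean (21.5% and 21.9%). In the rest of the 9 the DKO mean lay between the Tet2KO and WT means, in some of them nearer to WT. Across the 10 lower bins Tet2KO had 25.6% to 68.7% of the WT coverage. The 10 higher bins with the smallest p were all without a peak in either WT library. Their coverage was 1.04% to 2.29% in the Tet2KO libraries, as at chr1:186800001-186900000 with 2.02% and 1.81%. The DKO libraries covered 0.342% to 2.33% of them. These bins held a peak or a few peaks in the knockout libraries and none in WT, and no fold can be given. A bin was tested if at least 2 of the 6 libraries had a peak, so these entered only through the knockout libraries. Their 2 WT values also had no spread, so their rank by p is no support for a gain. In bins of 1 Mb, 3 bins passed limma's adjusted p under 0.05, all lower in Tet2KO. They were chr3:153000001-154000000 (12.2% and 12.0% in WT, 7.93% and 8.32% in Tet2KO, adjusted p = 0.0125), chr10:93000001-94000000 (adjusted p = 0.0125) and chr11:113000001-114000000 (16.4% and 16.3% against 12.3% and 11.7%, adjusted p = 0.0427).

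5mC, the substrate of TET enzymes, was mapped in the same series by immunoprecipitation of methylated DNA, and the 2 WT 5mC lists were used as a reference of places. The share of 5hmC peaks on such places was lower in the Tet2KO lists. Of the WT 5hmC peaks, 18.8% and 17.5% overlapped a 5mC peak of both WT 5mC libraries, and of the Tet2KO peaks 14.4% and 13.8% did. The difference was -4.05 points, with no overlap of the groups (exact permutation p = 0.33, the smallest possible, also when adjusted over the 5 quantities). Narrow peaks overlap other peaks less often by their size. Among peaks of 400 to 800 bp, the shares were 14.1% and 13.6% in WT and 11.8% and 11.6% in Tet2KO, and the difference was -2.16 points. When at least 50% of the 5hmC peak had to be covered by 5mC peaks it was -0.44 points. In the best decile of each list by score, 40.2% and 38.1% of WT peaks and 30.6% and 27.9% of Tet2KO peaks lay on 5mC peaks. In the lowest decile the shares were 11.8% and 10.6% against 9.87% and 9.77%.

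Lost and gained regions differed in this respect at equal width. Of the lost regions, 24.7% (exact binomial 95% interval 23.7 to 25.8) lay on 5mC peaks of both WT libraries, and of the gained regions 4.51% (4.04 to 5.01) did. Among shared regions the share was 22.3%. Wider regions met 5mC peaks more often, so the classes were also compared by width. From 400 to 800 bp the shares were 21.4% for lost, 4.18% for gained and 12.4% for shared regions. From 1200 to 2000 bp they were 39.0%, 10.3% and 26.1%. In these classes and in that of 800 to 1200 bp, gained regions were lowest and lost regions highest. The intervals cover counting error only, and regions of the same libraries are not independent samples. The 5mC reference came from WT cells alone, and its part in the asymmetry between lost and gained regions was not tested.

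**Figure D5:**
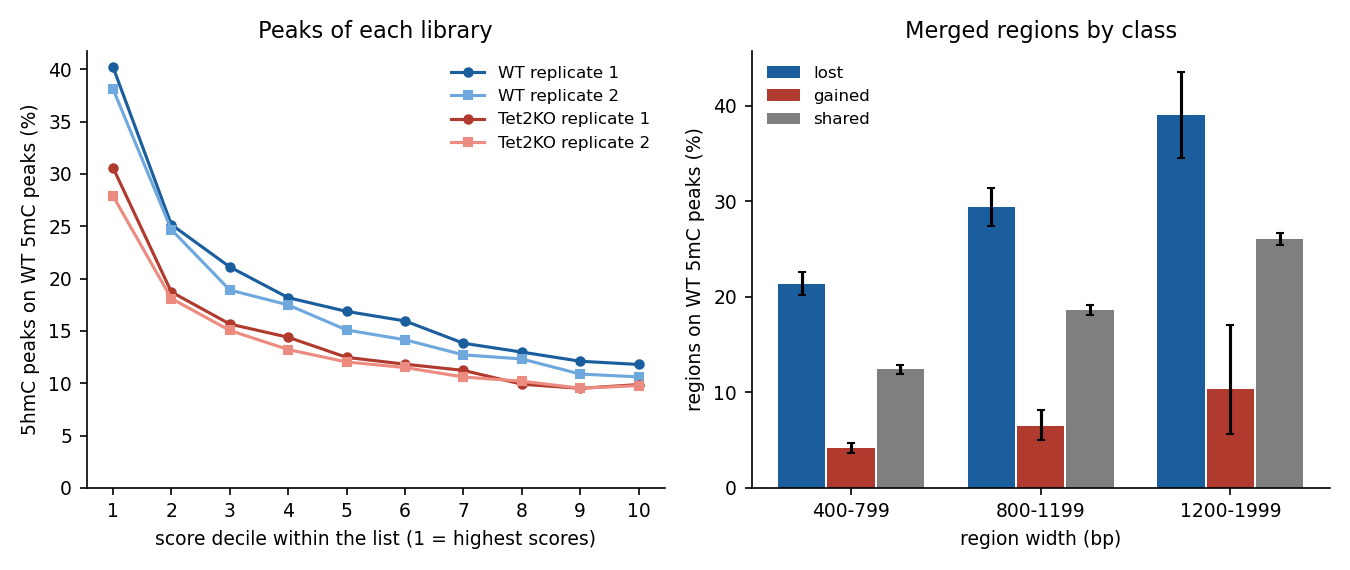
Left, the percentage of 5hmC peaks on WT 5mC peaks by deciles of each list from the highest scores (1) to the lowest (10), 1 line per library. Right, the same percentage for lost, gained and shared merged regions in 3 width classes, with exact binomial 95% intervals. Both Tet2KO lines lie below both WT lines, and gained regions have the lowest bars (4.18%, 6.44% and 10.3%).

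The same order was seen at shared regions and in bins. Shared regions on 5mC peaks had a median log2 difference in covered bp of -0.18, and 41.1% of them were narrower in both Tet2KO libraries. Those off 5mC peaks had -0.10 and 29.5%. Within 6 classes of mean covered length the order was the same in each, from -9.88% on and -6.43% off 5mC peaks under 600 bp to -8.17% and -5.86% in the widest class. Regions on 5mC peaks lay at a median score percentile of 82.7 and 83.0 in the WT lists and 77.8 and 77.3 in the Tet2KO lists, while those off 5mC peaks lay at 65.8 and 67.4 in WT and 69.1 and 69.7 in Tet2KO. The lists differ in length, so these percentiles describe each list and show no change. Bins in which WT 5mC peaks covered at least 8% had 23.9% and 23.1% 5hmC coverage in WT and 19.5% and 19.2% in Tet2KO, 17.5% less. Bins with under 1% 5mC coverage had 2.23% and 2.31% in WT and 2.52% and 2.43% in Tet2KO, 9.11% more. The bins richest in 5mC were also rich in 5hmC, so bins were compared by 5mC within each class of 5hmC coverage. Among bins with 5 to 10% 5hmC coverage, the difference between Tet2KO and WT was 1.65% in the 339 bins with under 1% 5mC coverage, -6.58% in the 973 bins with 2 to 4% and -19.8% in the 79 bins with at least 8%. Among bins with at least 20% 5hmC coverage, it was -5.84% in the 88 bins with 1 to 2% 5mC coverage and -16.6% in the 361 bins with at least 8%. Among bins under 1% 5hmC coverage, it was 49.8% in the 1601 bins with under 1% 5mC coverage and 4.97% in the 136 bins with 4 to 8%. Bins this sparse could enter through the knockout libraries alone. At like 5hmC coverage, bins with more WT 5mC thus had the lower values in Tet2KO relative to WT. No test was made of these class means.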

How the data were processed

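5hmC was profiled by hMe-Seal and 5mC by MeDIP-seq, per the labels' protocols. The authors deposited 1 peak list per library with no header. Its score column has a lowest value of 50 and, per the submitters' processing notes, MACS 1.4.2, Bowtie 0.12.9 and mm9 were used, with no role given. Whether control libraries were used or duplicates removed is not given in these sources, and read depth is unknown. The deposited score was used as a rank within a list and, as an alternative, with a minimum of 100 or 200.

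Groups came from the sample titles. Peaks overlapping by at least 1 bp were merged. Coverage of 100 kb bins with a peak in at least 2 of the 6 5hmC libraries (arcsine square root) and log2 covered bp of regions shared by 4 libraries were fitted with limma 3.58.1 (R 4.3.3, trend), Benjamini-Hochberg adjusted over all bins or regions, X and Y included. Library totals had exact two-sided permutation tests. The scripts were tested on simulated data. The places named are the 10 bins and 10 shared regions with the smallest p, the 5 longest runs, and the 10 widest and 10 best ranked lost and gained regions, the first few in full; the densest bins and the splits of shared regions and bins by 5mC were chosen after seeing the data, and the stretch on chromosome 2 was named after its values were seen. The comparison and its measures were chosen with earlier results of these data known. No mm9 annotation was used here, so no genes are named and no gene bodies, promoters or gene lists were tested. Alternatives included other score minimums, equal list lengths, other bins and filters, centring, and leaving out each library.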

Additional observations from a re-analysis of the deposited data

How the results depend on the processing

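Of 130 alternative values for 13 results, 109 kept their direction and call or stayed within the spread between replicates (counts within 1.5 times), 20 moved further and 1 had the opposite sign. The last was the median log2 width difference at shared regions, 0.049 after centring each library at its median, against -0.12; centring removes a shift of whole libraries by construction. Lost regions numbered 3134 with a score of at least 100, 1191 with at least 200, and 16221 to 20740 with 1 library left out. Gained regions numbered 4024, 1888, and 13555 to 26044. Leaving out a library loosens both definitions, since 1 library fewer must hold or lack the peak. Bins called lower by limma numbered 0 of 13201, but 1 of the 6320 bins whose mean covered fraction was 0.05 or more. With 1 Mb bins they numbered 3 of 1961. Bins called higher numbered 0 to 1 with 1 library left out, where the 1 call needed Tet2KO replicate 1 to be absent and the single Tet2KO library was assumed to vary like the other groups. The share of top-ranked WT peaks found in Tet2KO was 99.9% for the top 5%, 97.6% for the top 25%, 96.0% with 50% of the peak covered, and 99.6% to 99.7% with 1 library left out. The deviations of same-numbered libraries were hardly correlated (r = -0.02 for WT and Tet2KO, 0.04 for each with DKO). In library totals, however, replicate 2 differed from replicate 1 in the same direction in WT, Tet2KO and DKO. It had more peaks (134816 against 128026, 139869 against 136320 and 143346 against 129556). Its median peak was narrower (682 against 729 bp, 599 against 634 bp and 624 against 706 bp). Whether the numbers mark a pairing or a batch is thus not settled by this correlation. With the replicate number as a block, 0 bins and 0 shared regions were called, the median width difference was -0.12 (log2) and 58.4% of bins were lower; the block was fitted for bins and shared regions only. Planned tests of gene bodies and gene lists were not run, for lack of an annotation in the build used. With 2 libraries a genotype and unknown depth and fragment length, differences in weak peaks, peak width or coverage cannot be told apart from differences in these.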
